A study of Mus musculus with 4 samples.

Results

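The genes described here are those that adult microglia express at rest, the homeostatic microglia genes, and they were chosen by name. The list has 9 genes, written in capitals in the data as P2RY12, P2RY13, TMEM119, CX3CR1, SALL1, CSF1R, SIGLECH, GPR34 and SELPLG, among 14715 genes with a value. Of the 9 genes, 7 had a value in at least 1 group. At 7 days post injury (dpi) 6 were measured (Csf1r, Selplg, Siglech, Tmem119, Gpr34 and Sall1), and at 21 dpi also 6, with P2ry13 in place of Gpr34. A total of 5 were measured at both time points. Expression of P2ry12 and Cx3cr1 was not analysed here.

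The study compared the response to contusion spinal cord injury (SCI) between mice that carry a human ApoE3 or a human ApoE4 coding region in place of the mouse gene (targeted replacement). All groups were male mice, 3 to 5 months old at surgery, that received a 50 kdyne contusion of the cord at thoracic vertebra 9 under isoflurane. RNA of a segment of about 4 mm around the lesion was sequenced from ApoE3 and ApoE4 mice 7 and 21 days after injury, which gives 4 groups. Each group is described in the methods as 3 mice, but 1 value per gene and group was analysed here, so no spread between mice can be computed and no difference below has a replicate check or a test. No sham or uninjured cord was analysed here.

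Values are FPKM (fragments scaled to transcript length and to the size of the library), which can be compared between genes because they are given per length. The number of reads behind each value is unknown. A ratio is log2 of FPKM + 1 in one group over FPKM + 1 in the other, which understates the difference of genes with low values. From each ratio the median over genes whose mean FPKM was at least 1 was subtracted, and a gene was counted as past the fold when what remained was at least 1.3-fold in either direction. This median was 0.0018 for ApoE3 over ApoE4 at 7 dpi. At 21 dpi it was -0.42, with 93.8% of all genes lower in ApoE3 before subtraction. At that time point the ratios of the members and the counts of most lists without subtraction are therefore given as well. The genotype of each value was read from the name of the comparison, with which the sample marked as treatment agrees. The numbering of the columns would give the opposite reading, in which every direction between ApoE3 and ApoE4 below is reversed and the values at the 2 time points change genotype together.

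Microglia are the resident macrophages of the central nervous system. They depend on signaling through the Csf1r receptor, and TGF-beta together with transcription factors such as Sall1 and PU.1 maintains their resting program. After injury microglia typically lower these genes, while blood monocytes enter the lesion and become macrophages that share many general myeloid genes with microglia but express little Tmem119, Sall1 or Siglech. In a bulk segment, fewer cells of a type and less RNA per cell cannot be told apart.

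The members other than P2ry13 were above the median level of all genes in each group, which was 33.0 FPKM for both genotypes at 7 dpi and 26.9 and 36.8 FPKM at 21 dpi. In ApoE3 at 7 dpi the order was Csf1r, Selplg, Siglech, Tmem119, Gpr34 and Sall1, from 197 down to 47.7 FPKM. ApoE4 at 7 dpi had the same order, from 183 down to 42.6 FPKM. By 21 dpi Siglech stood first in both genotypes, followed by Selplg, Csf1r, Tmem119, Sall1 and P2ry13. How far neighbours in this order differ cannot be judged without replicates.

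**Figure D1:**
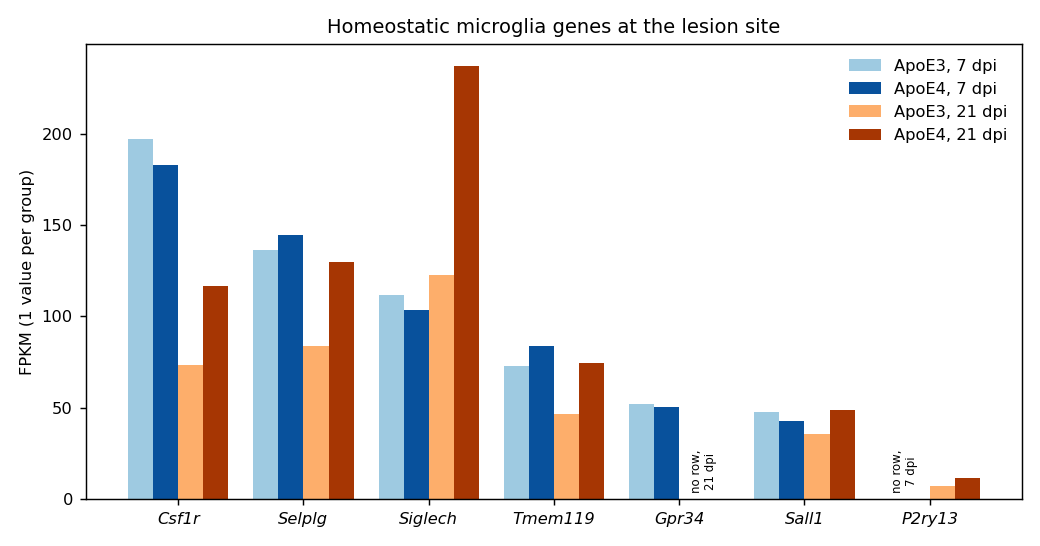
FPKM (y axis, linear, from 0) of the 7 homeostatic microglia genes with a value (x axis) in ApoE3 and ApoE4 lesion segments at 7 and 21 dpi, with 1 bar for each deposited group value and no error bar because there is 1 value per group. Siglech in ApoE4 at 21 dpi is the highest bar, at 237 FPKM, and Csf1r is lower at 21 dpi than at 7 dpi in both genotypes.

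Csf1r, the receptor for CSF1 and IL-34 on which microglial survival depends, had 197 FPKM in ApoE3 against 183 in ApoE4 at 7 dpi. At 21 dpi it had 73.4 FPKM in ApoE3 against 117 in ApoE4. Both 21 dpi values were under both 7 dpi values. Csf1r is also expressed by monocytes and macrophages, so it does not separate microglia from cells that enter the lesion. Its ligand Il34, made by neurons in the brain, had 112 and 136 FPKM at 7 dpi and 212 and 248 at 21 dpi in ApoE3 and ApoE4.

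Among the G protein-coupled receptors, Gpr34, a receptor for lysophosphatidylserine, was measured at 7 dpi alone, with 52.1 FPKM in ApoE3 against 50.1 in ApoE4. P2ry13, an ADP receptor, was measured at 21 dpi alone, with 6.85 FPKM in ApoE3 against 11.3 in ApoE4, the lowest values of any member. P2ry13 lies within the span of Med12l and Gpr34 within that of Cask in RefSeq GRCm38.p6. The library kit does not keep strand, so reads from a stretch shared by both genes could not be assigned by strand. Med12l had 49.8 FPKM in ApoE3 against 69.1 in ApoE4 at 21 dpi, above P2ry13, and Cask had 392 FPKM in ApoE3 against 331 in ApoE4 at 7 dpi, above Gpr34. These are values of the whole host genes. How many of their reads, if any, fell on P2ry13 or Gpr34 was not examined, and the values of P2ry13 and Gpr34 are uncertain for this reason. Siglech, Csf1r and Sall1 overlap noncoding RNA genes that had no value, so the part of those in their values is unknown.

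Sall1, the zinc finger transcription factor of the list, had 47.7 FPKM in ApoE3 against 42.6 in ApoE4 at 7 dpi. It had 35.6 FPKM in ApoE3 against 48.7 in ApoE4 at 21 dpi. The lowest of the 4 values was that of ApoE3 at 21 dpi, where 93.8% of all genes were lower than in ApoE4. With the all-gene median subtracted, the log2 ratio of ApoE3 over ApoE4 for Sall1 at 21 dpi was -0.018.

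Tmem119, a transmembrane protein widely used to stain resident microglia, had 72.8 FPKM in ApoE3 against 83.6 in ApoE4 at 7 dpi. At 21 dpi it had 46.8 FPKM in ApoE3 against 74.5 in ApoE4. Selplg, the ligand of P-selectin also present on leukocytes from the blood, had 136.0 FPKM in ApoE3 against 145 in ApoE4 at 7 dpi and 83.7 and 129 at 21 dpi. Tmem119 and Selplg followed each other in all 4 groups. Tmem119 was 0.535 and 0.578 of Selplg at 7 dpi in ApoE3 and ApoE4, and 0.559 and 0.576 of it at 21 dpi, as ratios of FPKM. This pair was chosen after its values were seen. The 2 genes are next to each other among protein-coding genes in RefSeq GRCm38.p6, as are P2ry13 and P2ry12.

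Siglech, a sialic acid-binding lectin found on microglia and on plasmacytoid dendritic cells, had 112 FPKM in ApoE3 against 104 in ApoE4 at 7 dpi. At 21 dpi it had 123 FPKM in ApoE3 against 237 in ApoE4. The ApoE4 value at 21 dpi stands apart from the other 3, which are close together. Most genes were higher in ApoE4 at that time point. The log2 ratio of ApoE3 over ApoE4 for Siglech was then -0.94, and -0.52 with the all-gene median subtracted. Of 5 plasmacytoid dendritic cell genes examined, the more restricted Ccr9, Ly6d and Klk1 had no value. Tcf4 and Bst2, which other cell types also express, were measured, with a summed level of 1245 and 1279.8 FPKM at 7 dpi and 792 and 1231 FPKM at 21 dpi in ApoE3 and ApoE4. Tcf4 was the more abundant. The part of these cells in the Siglech values was not tested.

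At 7 dpi the homeostatic genes were close between genotypes. The median-subtracted log2 ratio of ApoE3 over ApoE4 was -0.20 for Tmem119, -0.089 for Selplg, 0.053 for Gpr34, 0.10 for Siglech, 0.11 for Csf1r and 0.16 for Sall1. Of the 6 genes 4 were above the all-gene median and 2 below, and 0 were past the fold in either direction, beside 3.75% of all genes higher and 4.82% lower in ApoE3. Their own median was 0.079.

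General myeloid genes were set beside them at this time point, without a test of the difference. Of 19 pan-myeloid genes 18 were measured, and all 18 lay below the all-gene median in ApoE3, with a median of -0.26, and 3 were lower past the fold. C1qa, C1qb and C1qc encode the subunits of complement C1q, which microglia and macrophages make. C1qa had 935 FPKM in ApoE3 against 1254 in ApoE4, and Cd14, a co-receptor for lipopolysaccharide, had 20.4 and 31.9. Summed over the 18 genes, the level was 8198 FPKM in ApoE3 against 10222 in ApoE4, with C1qc the most abundant. Against the median of the pan-myeloid genes instead of the all-gene median, the median of the 6 homeostatic genes was 0.34, and 1 of them was higher in ApoE3 past the fold, beside 26.0% of all genes on that scale.

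Most genes of macrophages that enter from the blood also lay below the all-gene median in ApoE3 at 7 dpi. Of 21 such genes 18 were measured, and 17 lay below it and 1 above, with a median of -0.35. Past the fold 9 were lower and 0 higher, and the ratios ran from -1.19 to 0.14. Lyz2, the lysozyme of macrophages and neutrophils, had 4522 FPKM in ApoE3 against 6076 in ApoE4. The summed level of the list was 5492 FPKM in ApoE3 against 7217 in ApoE4, with Lyz2 the most abundant. Border macrophage genes had a median of -0.44 over 6 genes, 3 of them lower past the fold, with Stab1 at 329 FPKM in ApoE3 against 559 in ApoE4. The part of these cells in the values of the homeostatic genes was not tested.

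Neuronal genes had the opposite direction, with 11 of 11 above the all-gene median, a median of 0.26 and 1 higher past the fold. Snap25, a synaptic vesicle fusion protein, had 3366 FPKM in ApoE3 against 2545 in ApoE4. Astrocyte genes had a median of -0.00077 over 9 genes, oligodendrocyte genes one of 0.034 over 6 genes and endothelial genes one of -0.044 over 7 genes, and 0 genes of these lists were past the fold.

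**Figure D2:**
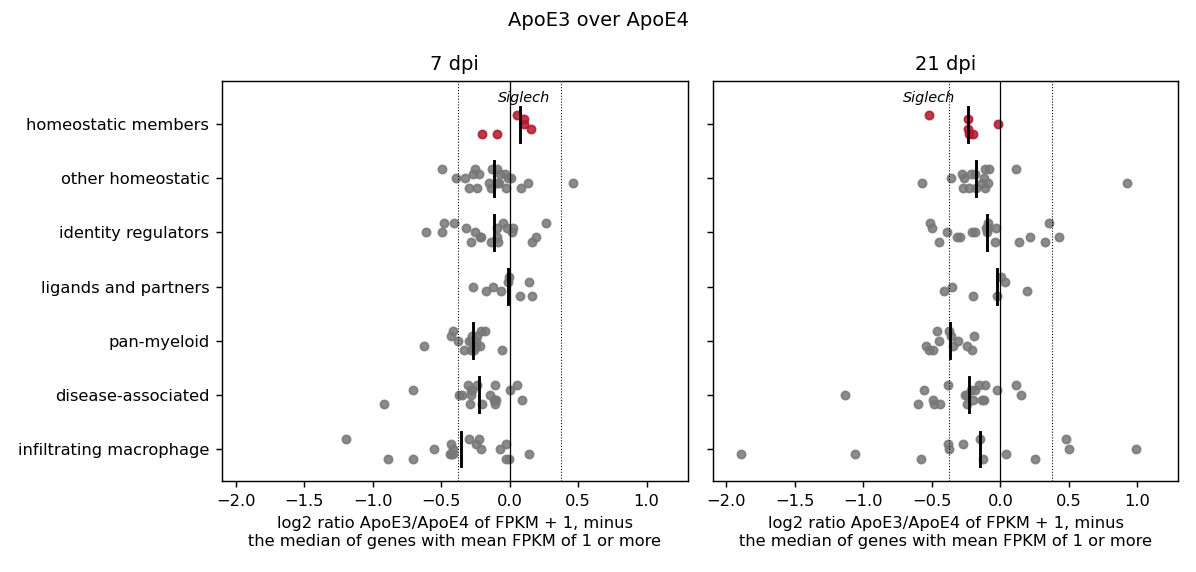
Log2 ratio of ApoE3 over ApoE4 (x axis, FPKM + 1, minus the median over genes whose mean FPKM was at least 1) at 7 dpi and 21 dpi for the homeostatic genes (red) and genes of 6 other lists (grey), where each point is 1 gene, black bars are list medians and dotted lines mark 1.3-fold. At 7 dpi the red points straddle 0 while all pan-myeloid points lie below it, and at 21 dpi both lists lie below 0. By the other reading of the genotypes both panels would be mirrored.

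At 21 dpi each of the 6 homeostatic genes was lower in ApoE3 than in ApoE4. Without subtraction the log2 ratio ran from -0.94 for Siglech to -0.44 for Sall1, with a median of -0.66, and all 6 were lower past the fold and 0 higher, beside 58.9% of all genes lower and 2.01% higher. Relative to the all-gene median, the ratio was -0.52 for Siglech, -0.24 for Csf1r, -0.24 for Tmem119, -0.23 for P2ry13, -0.20 for Selplg and -0.018 for Sall1. On this scale Siglech, 1.43-fold lower in ApoE3, was the 1 member of 6 past the fold, beside 8.06% of all genes lower and 7.46% higher. The median of the members was -0.23. Siglech was at the 4.61 percentile of all genes, whereas Sall1, at the 46.8 percentile, lay in the middle.

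The same direction was seen over all 12 pan-myeloid genes measured at 21 dpi, which had a median of -0.37 with 5 lower past the fold, and 12 without subtraction. Aif1, which encodes the microglia and macrophage marker IBA-1, had 166 FPKM in ApoE3 against 320 in ApoE4, a median-subtracted ratio of -0.52 like that of Siglech. Their summed level was 1993 FPKM in ApoE3 against 3646 in ApoE4, with C1qc the most abundant. Relative to the pan-myeloid genes, the median of the homeostatic genes turned from -0.23 to 0.13, and 0 of them was past the fold, beside 2.24% of all genes lower and 48.3% higher on that scale. Siglech stayed lower in ApoE3 on this scale, at -0.15. The direction of the other 5 genes between genotypes at 21 dpi depended on which genes they were set against.

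Lists of other cell types varied at 21 dpi. Of 10 astrocyte genes 9 lay below the all-gene median in ApoE3, with a median of -0.23 like that of the members and 2 lower past the fold. All 8 oligodendrocyte genes measured lay below it, with a median of -0.11 and 0 past the fold. Genes of infiltrating macrophages were mixed, with 8 below and 5 above, 4 lower and 3 higher past the fold. The 3 higher had at most 4.21 FPKM in either genotype. Of the 4 lower, Lyz2 had 212 FPKM in ApoE3 against 426 in ApoE4 and Ms4a7 had 9.57 against 28.6. The rest of these 4 had at most 9.08 FPKM in either genotype. Border macrophage genes had a median of 0.067 over 4 genes. Of 10 neuronal genes 6 lay below, with a median of -0.080, and of 6 endothelial genes 1, with a median of 0.075. Without subtraction all 10 astrocyte and all 8 oligodendrocyte genes were lower past the fold, as were 9 of 13 genes of infiltrating macrophages (1 was higher), 7 neuronal and 2 endothelial genes, and the border macrophage median was -0.36.

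Genes of skeletal muscle and of Schwann cells also differed between genotypes at 21 dpi. Of 7 skeletal muscle genes 6 were measured, and all 6 were lower in ApoE3 past the fold, with a summed level of 32.6 FPKM in ApoE3 against 704 in ApoE4. Tnnt3, a fast muscle troponin, was the most abundant, with 22.5 FPKM in ApoE3 against 515 in ApoE4, and Myh4 was listed at 0 in ApoE3. Of 6 Schwann cell genes 5 were measured, and all 5 were higher in ApoE3 past the fold, with a summed level of 2974 FPKM in ApoE3 against 1031 in ApoE4 and Pmp22, which other cells express too, the most abundant. At 7 dpi 5 skeletal muscle genes had a median of 0.34, with 2 higher and 1 lower past the fold. Their summed level was then 62.5 FPKM in ApoE3 against 40.3 in ApoE4. For 3 Schwann cell genes the median at 7 dpi was 0.044, with 0 higher and 1 lower past the fold. The part of these cells in the ratios of the homeostatic genes was not tested.

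Relative to the all-gene median, 4 of the 5 homeostatic genes measured at both time points were lower at 21 than at 7 dpi in each genotype, and Siglech was not. The 2 time points come from separate comparisons of the authors, so levels set across them rest on scaling done apart. In ApoE3 the median-subtracted log2 ratio of 21 over 7 dpi was -1.50 for Csf1r, -0.78 for Selplg, -0.72 for Tmem119, -0.50 for Sall1 and 0.048 for Siglech. Of the 5 genes, 4 were lower past the fold and 0 higher, beside 27.7% of all genes lower and 26.6% higher. The same 4 genes were lower past the fold and 0 higher without subtraction, beside 23.6% of all genes lower and 31.3% higher, since the all-gene median was 0.089.

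In ApoE4 the ratio was -1.17 for Csf1r, -0.69 for Tmem119, -0.68 for Selplg, -0.34 for Sall1 and 0.66 for Siglech. There 3 genes were lower past the fold and 1 was higher, beside 28.6% of all genes lower and 26.1% higher. The median of all genes was 0.53 in ApoE4, and without subtraction the ratios were -0.64 for Csf1r, -0.16 for Tmem119, -0.16 for Selplg, 0.19 for Sall1 and 1.19 for Siglech. Csf1r was thus lower and Siglech higher past the fold on both scales in ApoE4, beside 10.9% of all genes lower and 59.0% higher without subtraction, while the direction of Sall1 turned with the scaling. The median over the 5 genes was -0.72 in ApoE3 and -0.68 in ApoE4 with subtraction, and -0.63 and -0.16 without.

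Within each group the 5 genes measured at both time points can be set against each other, which no scaling of the group changes. Siglech made up 19.8% of their summed FPKM in ApoE3 against 18.6% in ApoE4 at 7 dpi, and 33.9% and 39.1% at 21 dpi. Csf1r went the other way, with 34.8% and 32.8% at 7 dpi and 20.3% and 19.2% at 21 dpi. The FPKM ratio of Siglech to Csf1r, a pair chosen after the values were seen, was 0.567 in ApoE3 and 0.568 in ApoE4 at 7 dpi. At 21 dpi it was 1.67 in ApoE3 and 2.03 in ApoE4. Both genotypes thus had the same order of these genes at each time point.

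Pan-myeloid genes were further below their 7 dpi level than the homeostatic genes. All 12 measured at both time points lay below the all-gene median, with a median ratio of 21 over 7 dpi of -1.49 in ApoE3 and -1.47 in ApoE4, and 12 and 11 of them lower past the fold. In ApoE4 the median was -0.95 without subtraction, with 11 lower. C1qa had 419 FPKM in ApoE3 against 790.4 in ApoE4 at 21 dpi. Genes of infiltrating macrophages had medians of -1.27 and -1.35 over 12 genes, the latter -0.82 without subtraction. Lyz2 was at 212 FPKM in ApoE3 against 426 in ApoE4 at 21 dpi, and Ms4a7, a gene of monocyte-derived macrophages, went from 172 to 9.57 FPKM in ApoE3 and from 231 to 28.6 in ApoE4. Border macrophage genes had medians of -2.85 and -3.67 over 4 genes. Genes of other cell types also differed between the time points. Neuronal genes had medians of 0.70 in ApoE3 and 1.21 in ApoE4, with 7 and 8 of 10 higher past the fold, and oligodendrocyte genes had medians of 0.14 and 0.36 over 6 genes. Astrocyte genes had medians of -0.34 and -0.22 over 9 genes. Without subtraction the latter turned to 0.31, with 4 higher and 1 lower past the fold. Skeletal muscle genes had medians of -1.03 and 3.00 over 5 genes, and Schwann cell genes had medians of 3.37 and 0.037 over 3 genes. Without subtraction the ApoE4 median was 0.89 for oligodendrocyte genes and 0.56 for Schwann cell genes, and the ApoE3 median of oligodendrocyte genes was 0.22. The part of a changing number of these cells in the homeostatic values was not tested.

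**Figure D3:**
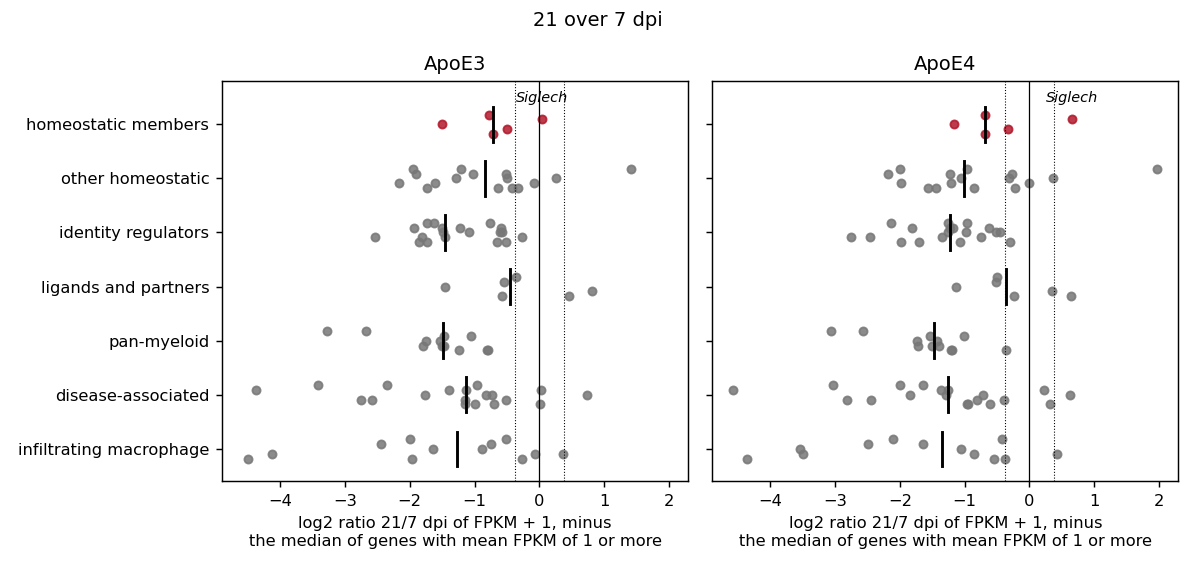
Log2 ratio of 21 over 7 dpi (x axis, FPKM + 1, minus the median over genes whose mean FPKM was at least 1) in ApoE3 and ApoE4 for the homeostatic genes (red) and genes of 6 other lists (grey), where each point is 1 gene, black bars are list medians and dotted lines mark 1.3-fold. The homeostatic median, at -0.72 in ApoE3 and -0.68 in ApoE4, lies to the right of the pan-myeloid median, at -1.49 and -1.47, with Siglech furthest right among the red points. Without subtraction every point would lie 0.089 further right in ApoE3 and 0.53 in ApoE4.

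Set against the median of pan-myeloid genes within the same group, the homeostatic genes took a higher place at 21 dpi, as did most genes. With the median ratio of the pan-myeloid genes subtracted, 93.0% of all genes in ApoE3 and 92.3% in ApoE4 were higher past the fold at 21 than at 7 dpi, beside 4 of the 5 members in each. The median log2(FPKM + 1) of the 5 homeostatic genes minus that of the 12 pan-myeloid genes was -1.29 in ApoE3 and -1.56 in ApoE4 at 7 dpi. At 21 dpi it was -0.40 in ApoE3 and -0.44 in ApoE4, a difference between time points of 0.88 in ApoE3 and 1.11 in ApoE4 that does not depend on the scaling of a group other than through the pseudocount. With the mean over the pan-myeloid genes in place of their median, the value at 21 dpi was 0.088 in ApoE3 and -0.048 in ApoE4. By gene, the difference was largest for Siglech, at 1.62 in ApoE3 and 2.13 in ApoE4, and smallest for Csf1r, at 0.070 and 0.30. Tmem119, Selplg and Sall1 lay between them, with 0.85, 0.79 and 1.07 in ApoE3 and 0.78, 0.78 and 1.13 in ApoE4. Without Siglech the difference between time points was 0.73 in ApoE3 and 0.71 in ApoE4. Against Aif1 alone, the FPKM ratio of Tmem119 was 0.266 in ApoE3 against 0.294 in ApoE4 at 7 dpi, and 0.282 and 0.233 at 21 dpi, so that it was not higher at 21 dpi in ApoE4.

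**Figure D4:**
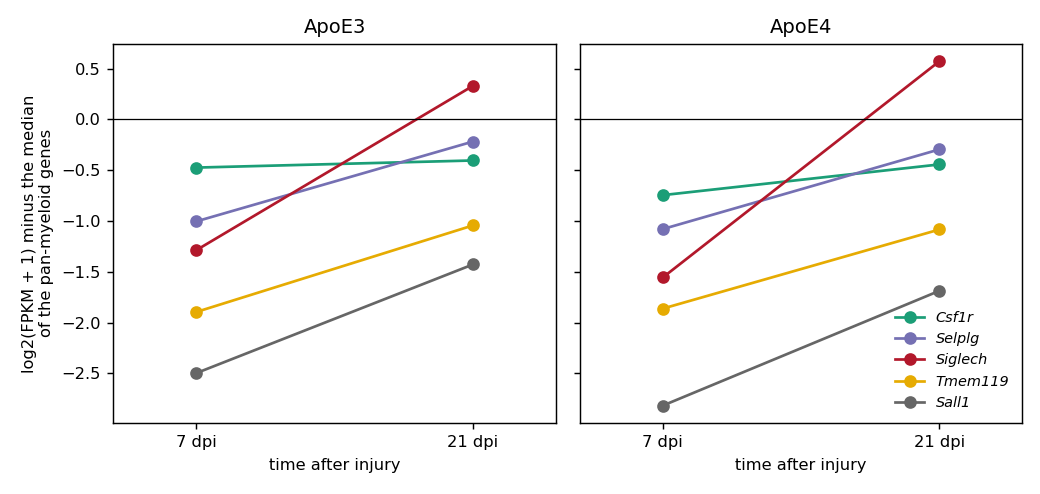
Level of each of 5 homeostatic genes (y axis, log2(FPKM + 1) minus the median of 12 pan-myeloid genes in the same group) at 7 and 21 dpi (x axis) in ApoE3 and ApoE4, with 1 point per group value. All 5 lines go up in both genotypes, steeply for Siglech, which crosses 0, and hardly for Csf1r in ApoE3.

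Other genes of resting microglia were examined as a list of 25 genes, of which 22 were measured at 7 dpi and 17 at 21 dpi. At the first time point 18 of 22 lay below the all-gene median in ApoE3, with a median of -0.11, 2 lower and 1 higher past the fold. At 21 dpi 15 of 17 lay below it, with a median of -0.18, 1 lower and 1 higher past the fold, and 15 lower without subtraction. Fcrls, an Fc receptor-like protein of mouse microglia, had 230.0 FPKM in ApoE3 against 301 in ApoE4 at 7 dpi, and 54.0 and 109 at 21 dpi. Crybb1, a crystallin gene expressed by microglia, had 16.3 FPKM in ApoE3 against 11.5 in ApoE4 at 7 dpi, and 47.7 and 69.4 at 21 dpi. Like Siglech, Crybb1 was thus higher at 21 than at 7 dpi in ApoE4, and with a ratio of 1.41 also in ApoE3. Over 16 genes the median ratio of 21 over 7 dpi was -0.83 in ApoE3, with 12 lower and 1 higher past the fold, and -1.01 in ApoE4, with 10 lower and 1 higher. Without subtraction it was -0.49 in ApoE4, with 9 lower and 3 higher.

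The transcription factors and TGF-beta pathway genes that maintain microglial identity, 20 in number, were all measured at 7 dpi and 19 of them at 21 dpi. At 7 dpi they had a median of -0.11 for ApoE3 over ApoE4 with 4 lower past the fold. Nrros, which holds latent TGF-beta on the microglial surface, had 169.8 FPKM in ApoE3 against 239 in ApoE4. Cebpa, a myeloid transcription factor, had 185 and 281. At 21 dpi the median was -0.10, with 4 lower and 1 higher past the fold (14 and 0 without subtraction), and Tgfbr1, a TGF-beta receptor, had 29.3 FPKM in ApoE3 against 56.9 in ApoE4. From 7 to 21 dpi 18 of 19 were lower past the fold in each genotype, with medians of -1.45 in ApoE3 and -1.23 in ApoE4, where without subtraction 14 were lower and the median was -0.71. Nrros then had 30.3 FPKM in ApoE3 against 50.3 in ApoE4.

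Ligands and partners of the members made up a list of 12, with 9 measured at 7 dpi and 7 at 21 dpi. Their medians for ApoE3 over ApoE4 were -0.011 and -0.024, with 0 past the fold at 7 dpi and 1 lower at 21 dpi, where 6 were lower without subtraction. The 1 gene was P2ry14, a receptor for UDP-glucose, with 16.0 FPKM in ApoE3 against 29.4 in ApoE4. Entpd1 (CD39), which breaks down the ATP and ADP sensed by P2Y receptors, had 79.1 FPKM in ApoE3 against 79.6 in ApoE4 at 7 dpi, and 30.1 and 52.1 at 21 dpi. Over 6 genes the median ratio of 21 over 7 dpi was -0.45 in ApoE3 and -0.37 in ApoE4, and without subtraction the latter turned to 0.16.

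Disease-associated microglia genes, which microglia raise as they lower the homeostatic ones, mostly lay below the all-gene median in ApoE3. Most of them did not pass the fold on that scale. Of 23 on the list 20 were measured at 7 dpi, and 17 lay below the all-gene median, with a median of -0.22 and 2 lower past the fold. Itgax, an integrin of activated microglia and dendritic cells, had 20.3 FPKM in ApoE3 against 33.7 in ApoE4. At 21 dpi 18 of 20 lay below it, with a median of -0.23 and 7 lower past the fold (18 without subtraction), and Cd52 had 60.9 FPKM in ApoE3 against 181 in ApoE4. From 7 to 21 dpi the median was -1.13 in ApoE3 and -1.26 in ApoE4 over 19 genes, with 16 lower and 1 higher past the fold in each. Without subtraction it was -0.73 in ApoE4, with 12 lower and 3 higher. Igf1, a growth factor of activated microglia, went from 938 to 92.5 FPKM in ApoE3. In ApoE4 it went from 1079.5 to 189 FPKM. Fth1, the ferritin heavy chain of many cell types, was the 1 gene higher past the fold at 21 dpi in both genotypes.

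Genes whose pattern over the 4 groups was most like that of the homeostatic genes were sought among 9679 genes whose mean FPKM was at least 5, by Euclidean distance to the median profile of the 5 members after each group's median and each gene's mean were subtracted on the log2 scale. The 10 nearest were Psmb8, Pald1, Efemp2, Phf20l1, Nfat5, Syngr2, Flnc, B2m, Tet3 and Zfp518a, at distances from 0.025 to 0.058. Psmb8, a subunit of the immunoproteasome, had 19.4 and 20.7 FPKM at 7 dpi and 11.9 and 19.4 at 21 dpi in ApoE3 and ApoE4. Among the members, Selplg lay at 0.049 and Tmem119 at 0.052 from the median profile that they help to set. Sall1 lay at 0.38, Csf1r at 0.65 and Siglech at 1.09. The median profile therefore describes Tmem119 and Selplg and not Siglech. Among the 20 nearest genes, 0 were on the lists of other homeostatic or pan-myeloid genes, while B2m was on the disease-associated list and Tcf4 on that of plasmacytoid dendritic cells.

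Promoter windows of 300 bases (250 before and 50 after the start site) in RefSeq GRCm38.p6 were examined for 5 of the 9 genes, namely Siglech, P2ry13, P2ry12, Cx3cr1 and Sall1, the last with 3 windows. Tmem119, Selplg, Gpr34 and Csf1r were not matched. The windows were searched on both strands for GAGGAAGT, a motif of the PU.1 type, for GAGGAA, its core, and for GGAANNGAA, a composite of ETS and IRF motifs. GAGGAAGT contains GAGGAA. Among all 32851 windows of this length, 3.20% held GAGGAAGT, 28.3% held GAGGAA and 8.24% held GGAANNGAA. GAGGAA was found once in the Siglech window, on the reverse strand from position 247, and once in the P2ry13 window, from position 203. No window of the 5 genes held GAGGAAGT or GGAANNGAA, and no window of P2ry12, Cx3cr1 or Sall1 held GAGGAA. A match is a description of the letters and does not show a bound site.

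The windows of Siglech, the gene furthest from the other members, of P2ry13, measured at 21 dpi alone, and of Sall1 (the most upstream of its windows), the transcription factor, are given 5′ to 3′ on the strand of the gene, with GAGGAA or its reverse complement in capitals. They lie at chr7:55767934-55768233 on the plus strand, chr3:59210833-59211132 on the minus strand and chr8:89044113-89044412 on the minus strand. Siglech and P2ry13 had 237 and 11.3 FPKM in ApoE4 at 21 dpi, and Sall1 had 48.7.
Siglech: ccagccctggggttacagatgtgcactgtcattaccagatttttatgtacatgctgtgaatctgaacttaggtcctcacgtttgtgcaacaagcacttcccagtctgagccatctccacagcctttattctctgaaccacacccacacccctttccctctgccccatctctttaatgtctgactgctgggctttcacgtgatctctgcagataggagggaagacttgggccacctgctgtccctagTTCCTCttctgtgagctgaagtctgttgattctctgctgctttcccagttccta
P2ry13: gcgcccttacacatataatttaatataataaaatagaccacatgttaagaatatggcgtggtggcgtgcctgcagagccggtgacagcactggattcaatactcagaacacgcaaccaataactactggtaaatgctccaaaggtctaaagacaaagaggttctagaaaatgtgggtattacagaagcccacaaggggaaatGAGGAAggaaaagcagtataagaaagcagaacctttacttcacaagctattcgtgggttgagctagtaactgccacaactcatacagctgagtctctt
Sall1: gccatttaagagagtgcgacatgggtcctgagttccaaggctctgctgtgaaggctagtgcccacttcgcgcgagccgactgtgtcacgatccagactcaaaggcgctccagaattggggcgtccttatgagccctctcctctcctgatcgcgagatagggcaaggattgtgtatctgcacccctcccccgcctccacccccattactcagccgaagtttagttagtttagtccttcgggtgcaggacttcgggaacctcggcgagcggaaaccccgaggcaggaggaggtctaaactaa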

How the data were processed

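RNA was measured in 4 groups, and the FPKM values deposited by the authors have 1 added, with 1 value per gene, genotype and time point. Per the methods, libraries were down-sampled to 1 read number, with 1 library of an unnamed group aligning less well, and the submitters' processing notes name STAR 2.5.4b, SAMtools 0.1.7 and Cuffdiff 1.3.0. The genome build is not given in the sources used here. No value was taken from the deposited columns of the authors' own fold changes and p-values or from a table of their differentially expressed genes. Which of 2 values the fold change divides by the other served, with the name of the comparison, to read the genotypes.

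FPKM was obtained by subtracting 1. The data held 14127 rows at 7 dpi and 11474 at 21 dpi. After 3 symbols on more than 1 row were left out, 14122 and 11469 genes remained, 10876 of them at both time points. Of 14715 symbols, 14553 matched RefSeq. Ratios used a pseudocount of 1 and were not tested, since there is 1 value per group. The steps were tested on simulated data. The reads behind a value are not known, and counting error could not be computed.

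The members and the 17 gene lists were chosen with earlier results of these data known. Named genes are the members, the 2 most abundant genes of each list and its 2 with the largest absolute ratio at each time point, and the 10 nearest in pattern. Genes that overlap a member, genes of the members' families, genes of a list at 0 and genes of a list without a value were also named. Which of these were printed was decided after their values were seen. Alternatives were pseudocounts of 0.1 and 0.01, other medians or none, folds of 1.2 and 1.5, a mean over the pan-myeloid list, a mean FPKM of at least 1 for the nearest genes and the other reading of the genotypes. Python 3.11.15, numpy 2.4.6, pandas 2.3.3 and matplotlib 3.10.9 were used.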

Additional observations from a re-analysis of the deposited data

Results flagged for a closer look

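The ratio of ApoE3 over ApoE4, relative to the all-gene median, had opposite signs at 7 and 21 dpi for 3 of the 5 homeostatic genes measured at both, beside 51.8% of all genes, a similar share. All 3 were above the median at 7 dpi and below it at 21 dpi, as were 26.1% of all genes. Of these ratios that of Siglech at 21 dpi alone passed 1.3-fold, and that of Sall1 at 21 dpi was close to 0, at -0.018. With the pan-myeloid median subtracted instead, Csf1r (0.37 at 7 dpi and 0.13 at 21 dpi) and Sall1 (0.42 and 0.35) had the same sign at both. Siglech (0.37 and -0.15) did not. Without subtraction the ratios at 21 dpi were -0.94 for Siglech, -0.66 for Csf1r and -0.44 for Sall1. On the log2 scale and relative to the all-gene median, the ratio at 21 dpi minus that at 7 dpi was -0.62 for Siglech, -0.35 for Csf1r and -0.17 for Sall1. For the median of the members measured at each time point the difference was -0.31. These differences were not tested, because each group has 1 value, and the groups at each time point are different mice. By the other reading of the genotypes all 4 differences change sign.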

How the results depend on the processing

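No paired analysis was possible because each group has 1 value per gene. A value was taken as moved when it changed by at least 0.1 on the log2 scale, and a count when it changed by over 1.5 times. Neither pseudocount moved any of 80 values and counts, nor did the median of all listed genes any of 34. The cause of the changes below was not tested, except where the setting itself makes them.

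With no median subtracted, the members' median at 21 dpi was -0.66 with 6 lower past the fold, beside 58.9% of all genes. For 21 over 7 dpi in ApoE4 the members' median was -0.16 with 1 lower, beside 10.9% of all genes. With the pan-myeloid median subtracted, the median was 0.34 with 1 higher at 7 dpi, 0.13 with 0 lower at 21 dpi, 0.77 with 4 higher and 0 lower for 21 over 7 dpi in ApoE3, and 0.79 with 4 higher and 0 lower in ApoE4. On that scale 26.0% of all genes were higher past the fold at 7 dpi, and 2.24% were lower at 21 dpi. On it 93.0% and 92.3% of all genes were higher past the fold for 21 over 7 dpi in ApoE3 and ApoE4. With it Tmem119 reversed to 0.77, Sall1 to 0.99 and Selplg to 0.71 in ApoE3, and Tmem119 to 0.78, Csf1r to 0.31 and Selplg to 0.79 in ApoE4. Sall1 in ApoE4, short of the fold before, also changed sign, to 1.13. A fold of at least 1.5 left 0 members lower at 21 dpi, and the share of all genes past that fold was not computed. Reading genotypes from the numbering of the columns gave medians of -0.079 at 7 dpi and 0.23 at 21 dpi, with Siglech at 0.52, 1 member higher and 0 lower at 21 dpi, and 1 member higher for 21 over 7 dpi in ApoE3 and 0 in ApoE4.

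Relative to pan-myeloid genes, the mean over that list gave -0.84 and -1.25 at 7 dpi and 0.088 and -0.048 at 21 dpi in ApoE3 and ApoE4, so the sign in ApoE3 at 21 dpi reversed. The other reading of the genotypes, chosen after seeing the data for this result, gave -1.56 and -1.29 at 7 dpi, and differences between time points of 1.11 in ApoE3 and 0.88 in ApoE4. Leaving out Siglech, also chosen after seeing the data, gave -1.45 in ApoE3 at 7 dpi, -0.72 and -0.76 at 21 dpi, differences of 0.73 and 0.71, and 0 members higher for 21 over 7 dpi in ApoE4. The restriction to members measured at both time points, chosen likewise, moved no median or count. The 20 nearest genes were the same with a mean FPKM of at least 1.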

Other observations

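Of 8 other genes of the P2ry, Sall and Siglec families measured at 21 dpi, 7 lay below the all-gene median in ApoE3 like Siglech. They were chosen after the values were seen. Siglece, Siglecf and P2ry14 were lower past the fold and P2ry2 was higher past it, beside 8.06% of all genes lower and 7.46% higher. Without subtraction all 7 were lower past the fold, beside 58.9% of all genes, and P2ry2, at 0.31, fell short of it. Siglece, a lectin of myeloid cells, had 11.5 FPKM in ApoE3 against 13.7 in ApoE4 at 7 dpi, and 9.39 and 24.0 at 21 dpi, where its median-subtracted log2 ratio was -0.84. Siglecf, known from eosinophils, had 2.71 FPKM in ApoE3 against 6.44 in ApoE4 at 21 dpi, a ratio of -0.58. Siglec1, a lectin of activated macrophages, had 87.0 and 75.3 FPKM at 7 dpi and was not measured at 21 dpi. Among ADP and nucleotide receptors, P2ry6 had 77.9 and 92.8 FPKM at 7 dpi and 20.6 and 32.9 at 21 dpi. P2ry2 went against them at 21 dpi, with 7.69 FPKM in ApoE3 against 5.99 in ApoE4.

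Of the lists not described above, neutrophil genes had medians of 0.028 at 7 dpi and -0.33 at 21 dpi for ApoE3 over ApoE4, over 8 and 7 genes, with 3 higher and 2 lower past the fold at 7 dpi and 2 lower at 21 dpi. Without subtraction the median at 21 dpi was -0.75, with 6 lower. Lymphocyte genes had medians of 0.40 over 2 genes and -0.23 over 3, the latter -0.65 without subtraction. The 1 platelet gene measured, Itga2b, had median-subtracted ratios of -0.24 and 0.19, and without subtraction the ratio at 21 dpi was -0.24.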
